A study of Arabidopsis thaliana with 9 samples.

Results

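The Aux/IAA genes followed here are 10 loci grouped as early auxin response genes: IAA1 (AT4G14560), IAA2 (AT3G23030), IAA3 (AT1G04240), IAA4 (AT5G43700), IAA5 (AT1G15580), IAA6 (AT1G52830), IAA7 (AT3G23050), IAA14 (AT4G14550), IAA19 (AT3G15540) and IAA29 (AT4G32280). They were taken by locus, with earlier results of these data known, and all 10 are among the 32833 loci of the deposited table. They belong to an Arabidopsis family of 29 Aux/IAA genes, and the other 19 are used for comparison. RNA sequencing had been done on 9 libraries of Arabidopsis thaliana, 3 from each of 3 groups: young rosette leaves of ntrc mutants aged 8 weeks, grown on soil under short days, whole ntrc mutant seedlings aged 6 days, and whole Col-0 wild type seedlings aged 6 days, the seedlings on MS medium in continuous light. Light was 125 µE per square metre and second for all groups. Leaves of 3 plants were pooled in each adult library, the labels do not name the mutant allele, and adult leaves of wild type plants are not analysed here. The mutation is in the gene of NTRC, a chloroplast thioredoxin reductase joined to its own thioredoxin, and the series title ties its loss to iron homeostasis.

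Aux/IAA proteins are short-lived repressors in the nucleus. They bind auxin response factors (ARFs) on the promoters of auxin-responsive genes and recruit a co-repressor. Auxin acts as a molecular glue between an Aux/IAA protein and an F-box receptor of the TIR1/AFB family, the repressor is then ubiquitinated and degraded, and the ARF is released. Many Aux/IAA genes are themselves ARF targets, so their transcripts are a common readout of auxin response in seedlings and form a feedback loop.

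The stretch of the protein that the receptor holds is the degron, whose core reads glycine, tryptophan, proline, proline, valine. Its coding letters, GGNTGGCCNCCNGTN on the coding strand and in frame, were found in the longest annotated coding sequence of all 10 genes. Of 27444 protein-coding genes of the RefSeq annotation of TAIR10.1, 17 (0.0619%) held these letters, and all 17 were Aux/IAA genes, so 7 of the other 19 family members held them too. These letters cover every codon of the core. The 12 genes without them, IAA8 and IAA27 among them, therefore lack this exact core in their longest annotated coding sequence. Variants of the core with other residues were not searched. The 10 stretches are shown because the degron is what makes these proteins auxin-dependent repressors, with its 15 coding letters in capitals and 6 bases on each side, 5′ to 3′ on the coding strand and credited to RefSeq, TAIR10.1.
IAA1, chr4:8361439-8361465, plus strand: atcgttGGATGGCCTCCAGTGagatct
IAA2, chr3:8181387-8181413, minus strand: atcgttGGTTGGCCACCAGTGagatct
IAA3, chr1:1129019-1129045, minus strand: attgttGGATGGCCACCAGTTagatct
IAA4, chr5:17550743-17550769, plus strand: attgttGGATGGCCACCAGTTagatct
IAA5, chr1:5366275-5366301, minus strand: gttgtgGGTTGGCCACCGGTTtgttcg
IAA6, chr1:19673323-19673349, minus strand: gcggtgGGATGGCCACCTGTGtgttct
IAA7, chr3:8195571-8195597, plus strand: gtggtgGGATGGCCACCTGTGaggaac
IAA14, chr4:8349478-8349504, minus strand: gtggtgGGTTGGCCACCGGTGaggaac
IAA19, chr3:5264310-5264336, plus strand: gtggtgGGGTGGCCACCGGTTtgttct
IAA29, chr4:15583945-15583971, plus strand: gttgttGGATGGCCACCAGTAaaaaca
IAA3 and IAA4 shared the whole stretch, and IAA6 and IAA7 the capitals. Along the full coding sequences, 2 of the 45 pairs of these genes shared any word of 31 letters: IAA3 and IAA4 shared 17 words, out of 840 in IAA3 and 531 in IAA4, and IAA7 and IAA14 shared 16. A small part of the reads of these pairs could therefore be split between copies. On the chromosomes IAA1 lies next to IAA14 and IAA2 next to IAA7, both pairs on opposite strands, and IAA3 lies next to IAA17.

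The deposited values are read as log2(FPKM + 1). FPKM divides each fragment count by gene length and library total, so levels of different genes can be compared within a library. At 1 FPKM or more stood 15331 to 15460 loci of an adult library and 18539 to 18829 of a seedling one. No counts were used, and the depth of sequencing is unknown. The authors had scaled seedling and adult libraries separately, with an upper quartile of the log2 values of 3.70 in each seedling library and 2.44 in each adult one. Seedling genotypes were therefore tested, and adult values stand beside them without a test. NTRC (AT2G41680) had 16.4, 19.6 and 17.4 FPKM in ntrc seedling libraries 1 to 3, against 130, 175 and 141 FPKM in wild type seedling libraries 1 to 3. Its log2 fold change was -2.98 (SE 0.13, adjusted p = 0.000588, limma with Benjamini-Hochberg adjustment), and the groups did not overlap. NTRC transcripts were thus lower in ntrc seedlings but not absent. In ntrc adult leaf libraries 1 to 3 NTRC had 16.1, 15.1 and 16.2 FPKM, on their own scale and with no wild type leaves beside them.

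The 10 genes spanned a wide range of levels, and 7 of them carried nearly all of the transcripts. In every library IAA7 was the highest and IAA2 the second, and together they made up 64.3% ± 0.980 of the summed FPKM of the 10 genes in ntrc seedlings and 64.2% ± 4.22 in wild type seedlings (mean ± SD, n = 3 each). IAA5, IAA6 and IAA29 stayed around or under 1 FPKM in all 9 libraries.

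IAA7, also known as AXR2, represses growth responses to auxin in roots and hypocotyls when its degron is mutated. It had 28.4, 22.9 and 23.2 FPKM in ntrc adult leaf libraries 1 to 3, 91.3, 116 and 109 FPKM in ntrc seedling libraries and 75.6, 97.8 and 99.4 FPKM in wild type seedling libraries. Wild type library 1 was the lowest of the seedling values, and the other two wild type values lay between ntrc library 1 and ntrc library 3. IAA2, whose promoter is widely used as an auxin reporter, had 24.5, 18.7 and 16.7 FPKM in ntrc adult leaves, 63.8, 75.6 and 76.7 FPKM in ntrc seedlings and 62.3, 57.4 and 72.1 FPKM in wild type seedlings. The seedling groups overlapped, since wild type library 3 stood above ntrc library 1.

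IAA4 and IAA3 followed in seedlings, and they are close relatives. IAA4 had 8.14, 7.14 and 8.48 FPKM in ntrc adult leaves, 37.0, 52.4 and 42.6 FPKM in ntrc seedlings and 36.4, 33.2 and 37.3 FPKM in wild type seedlings. The highest seedling value was that of ntrc library 2, and ntrc library 1 lay within the wild type range. IAA3, known as SHY2, restrains the size of the root meristem downstream of cytokinin. It had 13.0, 11.1 and 8.57 FPKM in ntrc adult leaves, 19.9, 24.3 and 27.1 FPKM in ntrc seedlings and 20.5, 16.5 and 21.1 FPKM in wild type seedlings. Again ntrc library 1 lay within the wild type range while ntrc libraries 2 and 3 stood above it.

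IAA14, IAA1 and IAA19 had moderate levels. IAA14, known as SLR, blocks lateral root initiation when stabilized. It had 4.70, 3.53 and 3.51 FPKM in ntrc adult leaves, 14.98, 12.9 and 13.5 FPKM in ntrc seedlings and 14.6, 12.1 and 12.1 FPKM in wild type seedlings, with library 1 the highest in each group. IAA1, known as AXR5, had 5.51, 3.69 and 4.51 FPKM in ntrc adult leaves, 10.8, 7.88 and 8.40 FPKM in ntrc seedlings and 15.02, 8.37 and 7.93 FPKM in wild type seedlings. Wild type library 1 stood above the other five seedling values of IAA1. IAA19, known as MSG2, acts in bending growth of the hypocotyl. It had 2.25, 1.62 and 1.54 FPKM in ntrc adult leaves, 6.61, 5.52 and 6.95 FPKM in ntrc seedlings and 6.50, 4.44 and 7.41 FPKM in wild type seedlings, where both the lowest and the highest seedling value were wild type ones.

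The remaining genes were at the edge of detection. IAA29, a target of phytochrome-interacting factors (PIFs) in shade and warmth, had 0.344, 0.378 and 0.447 FPKM in ntrc adult leaves, 0.869, 0.695 and 1.26 FPKM in ntrc seedlings and 0.717, 0.647 and 1.27 FPKM in wild type seedlings. IAA6, known as SHY1, had 1.10, 0.666 and 0.655 FPKM in ntrc adult leaves, 0.507, 0.353 and 0.860 FPKM in ntrc seedlings, and 0.448 and 1.02 FPKM in wild type seedling libraries 2 and 3, while wild type library 1 was listed at 0. IAA5, one of the most strongly auxin-induced genes of the family, was listed at 0 in all 3 ntrc seedling libraries and in wild type library 2, against 0.767 and 0.597 FPKM in wild type libraries 1 and 3. In ntrc adult leaves it had 0.630, 0.431 and 0.555 FPKM. A value of 0 in such a table can be a missed estimate as well as no expression, so no fold change is given for IAA5.

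**Figure D1:**
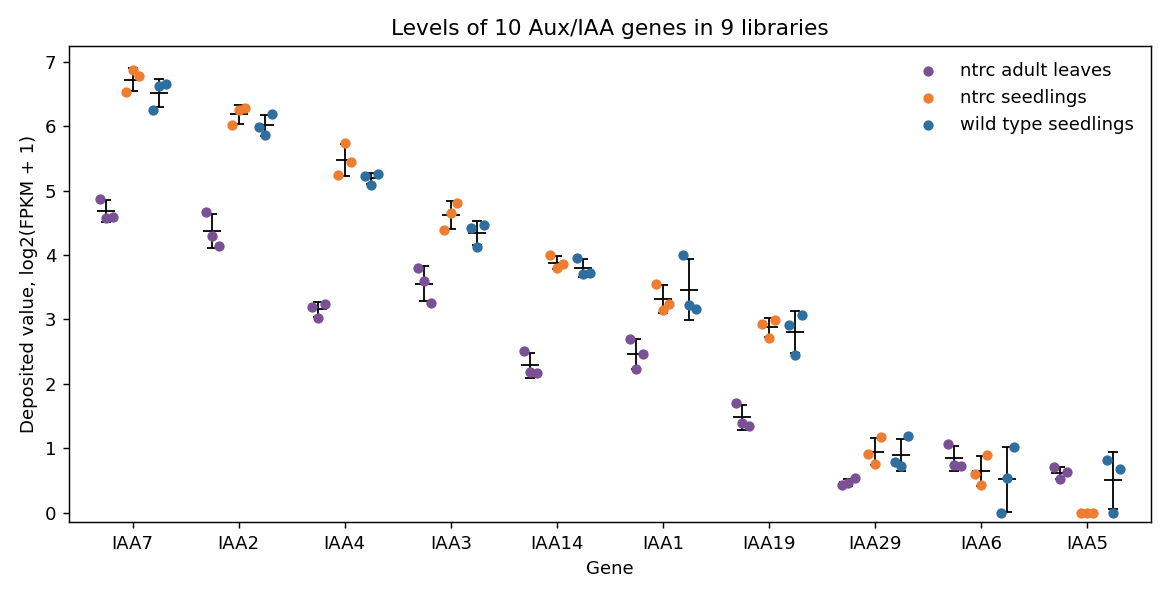
Deposited log2(FPKM + 1) values (vertical axis) of the 10 Aux/IAA genes (horizontal axis) in 3 libraries each of ntrc adult leaves, ntrc seedlings and wild type seedlings. Points are libraries in order of their number, dashes are means and bars 1 SD; the seedling groups overlap for each gene, IAA5 is listed at 0 in 4 seedling libraries, and adult values stand on their own scale.

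The order of the members was stable across seedlings. IAA7, IAA2, IAA4 and IAA3 held ranks 1 to 4 in all 6 seedling libraries, and the library ranges of neighbours in that order were separate within each genotype. IAA14 and IAA1 did not differ beyond their spread in wild type seedlings, where IAA14 was above IAA1 in 2 of 3 libraries, whereas in ntrc seedlings IAA14 was above in 3 of 3 with separate ranges. IAA19 was the seventh throughout. Below it the ranges of IAA29 and IAA6 overlapped in both genotypes, as did those of IAA6 and IAA5 in wild type seedlings. In all 3 ntrc adult libraries the order was IAA7, IAA2, IAA3, IAA4, IAA1, IAA14, IAA19, IAA6, IAA5 and IAA29. There the ranges of IAA7 and IAA2, of IAA1 and IAA14 and of IAA5 and IAA29 overlapped across libraries. Within each library, though, the first of each pair was above the second in 3 of 3. The mean log2 ratio was -0.33 ± 0.13 for IAA2 to IAA7 and 0.22 ± 0.15 for IAA1 to IAA14 (SD, n = 3 each).

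The genotype comparison asked whether these transcripts differed between ntrc and wild type seedlings. No member was called higher or lower. Of the 10 genes, 7 passed the level filter, which asks for 1 FPKM in 3 or more seedling libraries. They were tested with limma among 18818 genes, and 0 of these 7 had an adjusted p below 0.05 (Benjamini-Hochberg; smallest 0.947) or an unadjusted p below 0.05. Over all tested genes 0.0266% were called, 1 higher (0.00531%) and 4 lower (0.0213%), so few calls were made at all. In a fit that pairs libraries of the same number as blocks, 0.388% were called, 30 higher (0.159%) and 43 lower (0.229%), again with 0 of the 7 Aux/IAA genes among them (smallest adjusted p 0.372, limma with Benjamini-Hochberg adjustment). In that blocked fit IAA7 and IAA3 had unadjusted p of 0.0348 and 0.0487 (limma), where 11.6% of all tested genes had an unadjusted p below 0.05.

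Most of the differences were small and positive. IAA4 had the highest log2 fold change at 0.28 (SE 0.13), with 5.48 ± 0.25 in ntrc seedlings and 5.19 ± 0.087 in wild type seedlings (log2 values, mean ± SD, n = 3 each). IAA3 had 0.28 (SE 0.14), IAA7 0.21 (SE 0.14) and IAA2 0.17 (SE 0.12). IAA14 had 0.09 (SE 0.10) and IAA19 0.07 (SE 0.17). IAA1 was the exception with -0.15 (SE 0.24), at 3.31 ± 0.22 in ntrc seedlings and 3.46 ± 0.47 in wild type seedlings. The median over the 7 genes was 0.17, beside 0.0037 over all tested genes, and 6 of 7 were positive, beside 51.2% of all tested genes.

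The 95% intervals of these differences, without the block, all included 0. For IAA4 the interval ran from -0.02 to 0.59 on the log2 scale, so an increase up to 1.51-fold lies inside it. The IAA3 interval reached from -0.04 to 0.60, that of IAA7 from -0.12 to 0.55 and that of IAA2 from -0.11 to 0.45. IAA14 had the narrowest interval, -0.15 to 0.33, and IAA1 the widest, -0.71 to 0.42. With the block the intervals were narrower: IAA7 had 0.02 to 0.41 and IAA3 0.0022 to 0.55, both above 0, while IAA1 had -0.42 to 0.12 and the widest was that of IAA4, -0.02 to 0.59. These intervals are not adjusted for the number of genes tested, and the pairing behind the block was read from these same values. On the log2(FPKM + 1) scale folds of low genes are understated.

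**Figure D2:**
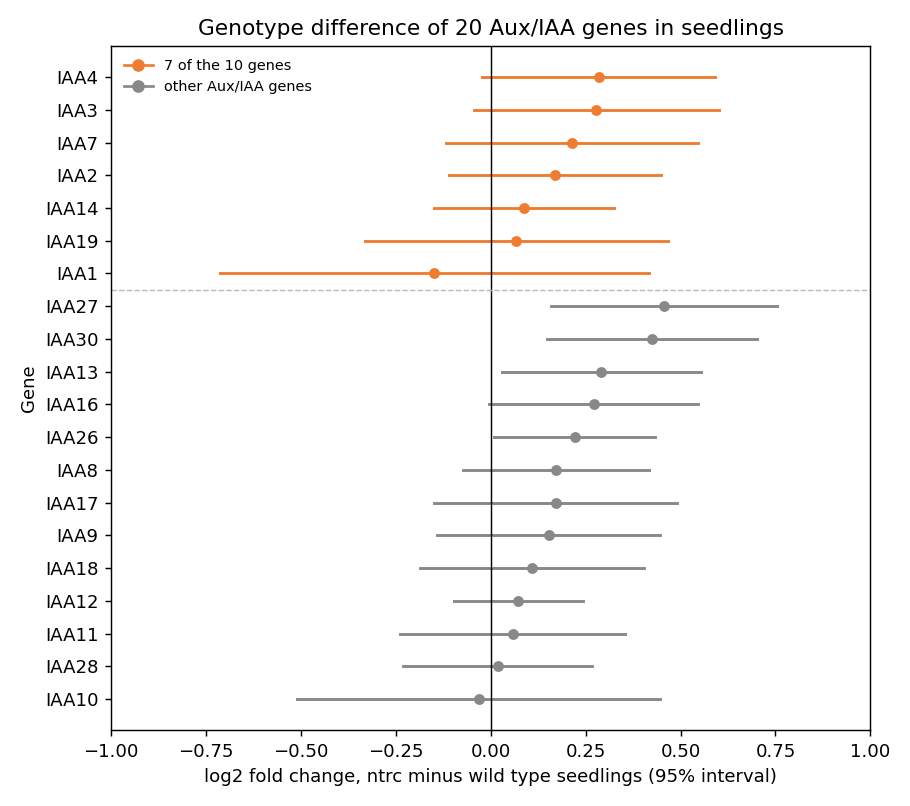
Log2 fold change of ntrc against wild type seedlings (horizontal axis) with its 95% interval from limma without the block for the 20 Aux/IAA genes tested (vertical axis), 7 of the 10 genes followed here in orange above the line and 13 other family members in grey below it. All 7 orange intervals include 0, and 18 of the 20 points lie right of 0.

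Single libraries weighed on these values. Among the 7 tested genes, wild type library 2 was the lowest seedling library for 5 (IAA2, IAA3, IAA4, IAA14 and IAA19), and ntrc libraries 2 and 3 were each the highest for 2. Without wild type library 2 the median of the 7 genes was 0.097, and it was 0.26 when wild type library 3 was left out and 0.25 when ntrc library 1 was. Single genes moved too: without wild type library 1 IAA7 was at 0.088, without ntrc library 2 IAA4 was at 0.15 and IAA7 at 0.14, and without wild type library 2 IAA3 was at 0.17 and IAA2 at 0.097. IAA1 turned positive without wild type library 1, at 0.12 (adjusted p = 0.917), and IAA19 turned negative without wild type library 2, at -0.12 (adjusted p = 0.976, limma with Benjamini-Hochberg adjustment). Libraries of the same number tended to deviate together across genes, and the differences within numbers were uneven. They had medians of 0.023, 0.26 and 0.13 over the 7 genes for numbers 1 to 3, beside 0.022, -0.0068 and 0.0062 over all tested genes. IAA2, IAA4, IAA7 and IAA14 were higher in ntrc in each of 3 pairs, which held for 18.7% of all tested genes. IAA3 differed by -0.040 in pair 1, 0.53 in pair 2 and 0.35 in pair 3. For none of the 7 genes did all ntrc libraries lie above all wild type ones, an arrangement found for 5.39% of all tested genes, nor below them (4.37%).

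**Figure D3:**
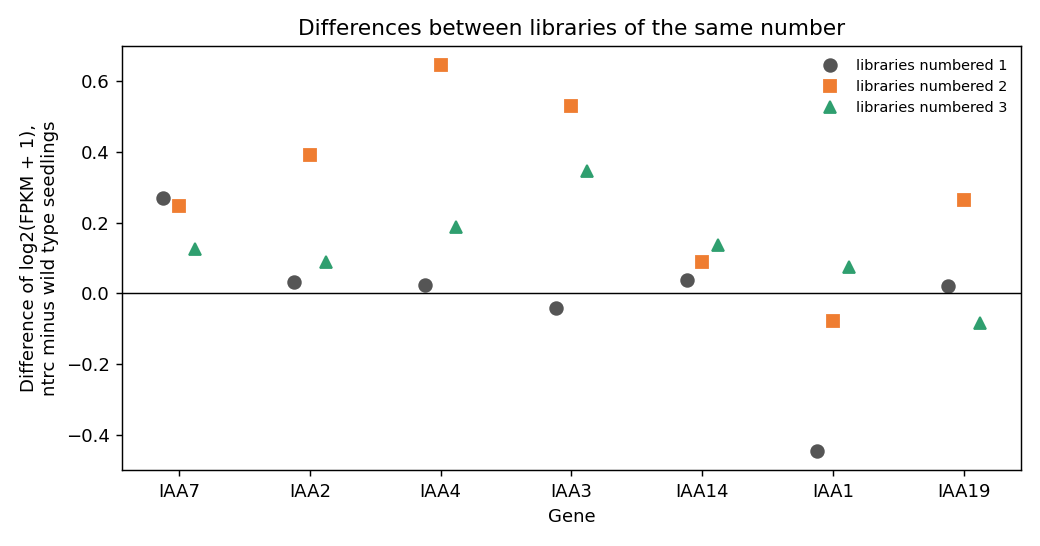
Difference of log2(FPKM + 1) between the ntrc and the wild type seedling library of the same number (vertical axis) for the 7 tested genes (horizontal axis), with 1 symbol for each number. Libraries numbered 2 gave the largest difference for IAA2, IAA4, IAA3 and IAA19, and IAA1 had -0.44 in pair 1.

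The 3 genes below the level filter were fitted in the alternative without a filter. There IAA29 had a log2 fold change of 0.05 (SE 0.17) and IAA6 one of 0.12 (SE 0.26), with adjusted p of 0.977 and 0.964 (limma, Benjamini-Hochberg). The adjusted p of IAA5 was 0.935 in the same fit and 0.430 with the block.

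Of the other 19 Aux/IAA genes 13 were tested, 12 had a positive log2 fold change, and the median was 0.17. None passed the adjusted threshold in either fit, and 4 (30.8%) had an unadjusted p below 0.05 (limma), beside 5.01% of all tested genes. IAA27 had the largest value at 0.46 (SE 0.13; adjusted p = 0.947, and 0.0774 with the block, limma with Benjamini-Hochberg adjustment), with 14.1, 16.9 and 18.7 FPKM in ntrc seedlings, against 10.2, 12.3 and 12.9 FPKM in wild type seedlings. IAA30, which lacks the canonical degron, followed with 0.43 (SE 0.12), at 2.08, 2.49 and 1.97 FPKM in ntrc seedlings, against 1.31, 1.49 and 1.31 FPKM in wild type seedlings. All ntrc libraries stood above all wild type ones for 5 of the 13 (38.5%; IAA12, IAA13, IAA26, IAA27 and IAA30), beside 5.39% of all tested genes and 0 of the 7. The 10 genes made up 34.4% ± 0.9003 of the summed FPKM of the family in ntrc seedlings and 34.5% ± 0.525 in wild type seedlings (mean ± SD, n = 3 each). In ntrc adult leaves they made up 40.8% ± 2.83 (SD, n = 3), and the adult range of 39.2% to 44.1% lay above all 6 seedling libraries.

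Upstream and downstream steps of the pathway were also without a called gene. Together 70 of 84 genes in 7 other lists were tested, and 0 passed the adjusted threshold without or with the block (smallest adjusted p 0.947 and 0.0602, limma with Benjamini-Hochberg adjustment). Unadjusted, 5 of the 70 had a limma p below 0.05 without the block, which is 7.14% beside 5.01% of all tested genes. With the block 17 had one, which is 24.3% beside 11.6%. Of these 17, 8 were SAUR genes, a list with 10 tested genes, and the larger share rested mainly on them.

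Receptor and ARF genes had small differences in both directions. All 6 TIR1/AFB receptor genes were tested, with a median log2 fold change of 0.047. The largest values were those of AFB4 at -0.18 (SE 0.15) and AFB3 at 0.09 (SE 0.11). TIR1 itself had 36.8, 42.7 and 40.7 FPKM in ntrc seedlings, against 34.0, 41.3 and 40.3 FPKM in wild type seedlings. Of the 15 ARF genes, which encode the transcription factors that Aux/IAA proteins bind, 9 were positive and 6 negative, with a median of 0.045. ARF11 had 0.27 (SE 0.18) and ARF17 0.17 (SE 0.12).

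Other early auxin-responsive genes, like the Aux/IAA genes, had mostly positive differences and no call. Of 9 genes for auxin conjugation (GH3) and oxidation (DAO), 8 were tested, 6 were positive and the median was 0.19. GH3.2, an auxin-inducible enzyme that links auxin to amino acids, had 0.68 (SE 0.30; adjusted p = 0.947, and 0.0602 with the block, limma with Benjamini-Hochberg adjustment). It had 5.37, 9.29 and 11.02 FPKM in ntrc seedlings, against 3.31, 4.62 and 6.88 FPKM in wild type seedlings, values that overlap. DAO2 had -0.30 (SE 0.15). Of 16 SAUR genes, small genes of cell elongation, 10 were tested, all of them positive with a median of 0.44, and 0 passed. SAUR64 had 0.59 (SE 0.40) and SAUR66 0.56 (SE 0.21). Wild type library 1 had the lowest SAUR66 value, at 1.75 FPKM, and ntrc library 2 the highest, at 5.13 FPKM. Many SAUR genes are near-identical tandem copies, so reads may be split between them, each value is uncertain, and their number is not a count of independent genes.

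Auxin synthesis, transport and the light pathway completed the lists. Of 13 synthesis genes 8 were tested, with a median of -0.0044. YUC5 had -0.65 (SE 0.49), and TAA1, which makes the first step from tryptophan, had 0.37 (SE 0.12) with all ntrc libraries above all wild type ones. Among 15 transport genes 14 were tested, with a median of 0.054. The carrier PIN2, specific to root epidermis and cortex, had -0.27 (SE 0.11), with all ntrc libraries below all wild type ones, and PIN3 had 0.24 (SE 0.14). Of 10 PIF and shade response genes 9 were tested with a median of 0.12, HFR1 at 0.47 (SE 0.18) and PIF4 at 0.41 (SE 0.20).

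**Figure D4:**
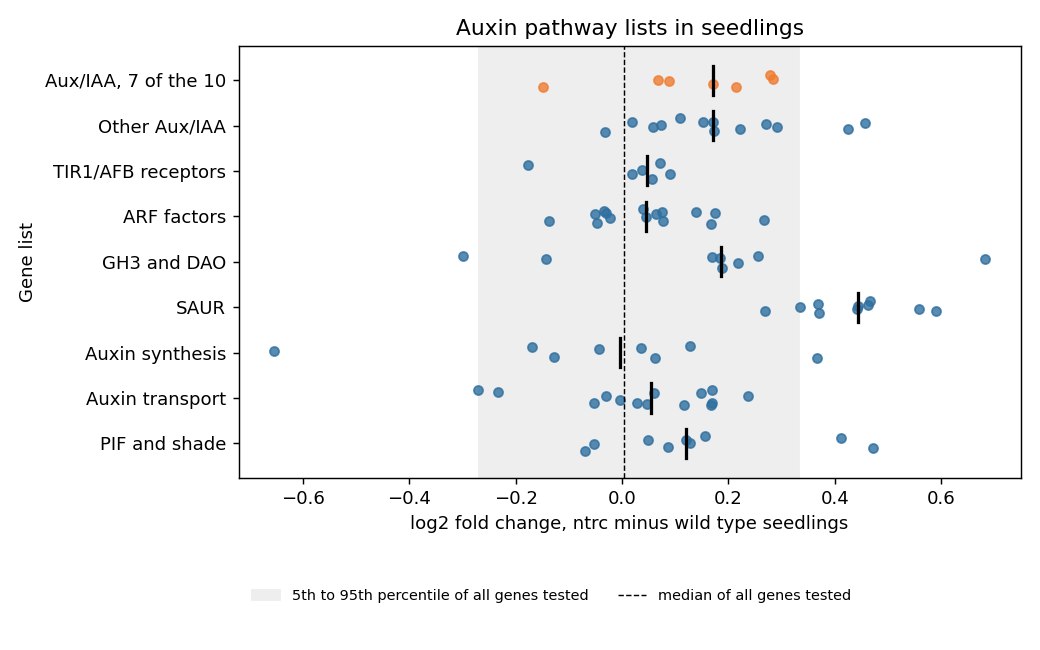
Log2 fold change of ntrc against wild type seedlings (horizontal axis) for each tested gene of 9 lists of the auxin pathway (vertical axis), with the list's median as a black bar; points are spread up and down at random. The dashed line is the median of all 18818 tested genes and the grey band holds their 5th to 95th percentile, -0.27 to 0.33. The orange points of the 7 tested Aux/IAA genes all lie within the band.

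Whole seedlings hold several organs, and a lower share of cells cannot be told apart from less RNA per cell. Root markers overlapped between genotypes, with a summed level of 67.5 to 76.8 FPKM in ntrc seedlings and 54.4 to 92.7 FPKM in wild type seedlings, and 6 of 8 tested were positive with a median of 0.094. ESB1, a gene of the root endodermal barrier, had the lowest fold change among them, with 4.93, 5.80 and 6.54 FPKM in ntrc seedlings, against 10.4, 12.7 and 7.83 FPKM in wild type seedlings. Its log2 fold change was -0.73 (SE 0.17; adjusted p = 0.947, and 0.160 with the block, limma with Benjamini-Hochberg adjustment), and the groups did not overlap. Markers of dividing cells summed to 94.0 to 97.9 FPKM in ntrc seedlings and 86.5 to 90.4 FPKM in wild type seedlings, sums that did not overlap (5 of 6 positive, median 0.033). Of 5 genes of green tissue, 4 were positive with a median of 0.18, and their sums of 26487 to 32320 FPKM in ntrc seedlings and 25086 to 34136 FPKM in wild type seedlings overlapped. Guard cell markers had 3 of 3 tested genes positive (median 0.26), with sums of 18.9 to 20.4 FPKM in ntrc seedlings and 14.3 to 20.2 FPKM in wild type seedlings. Seed reserve genes summed to 6.42 to 17.4 FPKM in ntrc seedlings and 4.39 to 10.5 FPKM in wild type seedlings, with 2 of 4 tested, both positive with a median of 0.50. One of them, the oleosin gene OLEO2, had 5.35, 8.67 and 13.4 FPKM in ntrc seedlings, against 4.12, 3.84 and 3.92 FPKM in wild type seedlings. Its log2 fold change was 0.95 (SE 0.27; adjusted p = 0.947, and 0.229 with the block, limma with Benjamini-Hochberg adjustment), and the groups did not overlap. The other tested gene, CRA1, had 0.04. Of the untested seed genes, CRC had means of 0.503 FPKM in ntrc and 1.04 FPKM in wild type seedlings. OLEO1 had means of 0.487 FPKM in ntrc and 0.0647 FPKM in wild type seedlings, so the list was mixed. No marker gene passed the adjusted threshold (limma), and the part of these cell types in the Aux/IAA values was not tested.

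Adult leaves and seedlings of the mutant differ in age, organ, day length, medium, library kit and scaling, which cannot be told apart. On the deposited log2 scale the 7 higher genes were lower in ntrc adult leaves than in ntrc seedlings, with differences of -0.85 for IAA1, -1.06 for IAA3, -1.40 for IAA19, -1.595 for IAA14, -1.81 for IAA2, -2.04 for IAA7 and -2.32 for IAA4. The median difference over 19609 loci was -1.25, and the 10th and 90th percentiles were -2.28 and -0.13, so IAA4 lay just outside this range and the other 6 inside it. The sum of the 10 genes was 75.6 ± 11.2 FPKM in ntrc adult leaves and 276 ± 26.5 FPKM in ntrc seedlings (mean ± SD, n = 3 each). The adult libraries held few root transcripts, as their label says. RHD6, EXPA7, PLT1 and PLT2 were at 0 in all 3, and the 9 root markers summed to 2.60 to 2.91 FPKM. Markers of dividing cells summed to 8.87 to 11.6 FPKM in adult leaves, and the part of either in the Aux/IAA values was not tested.

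Within a library, the order of genes does not depend on scaling. Shares and ratios do not either if the authors scaled FPKM before taking the logarithm, but would if the log2 values were scaled, which was not tested. IAA3 took 14.4% ± 1.66 of the summed FPKM of the 10 genes in ntrc adult leaves, 8.59% ± 0.768 in ntrc seedlings and 8.02% ± 0.829 in wild type seedlings (mean ± SD, n = 3 each). IAA4 took 10.6% ± 1.67 in ntrc adult leaves, 15.9% ± 1.58 in ntrc seedlings and 14.8% ± 0.769 in wild type seedlings. IAA3 was above IAA4 in all 3 adult libraries and below it in all 6 seedling libraries, with a mean log2 ratio of 0.44 ± 0.37 in ntrc adult leaves, -0.89 ± 0.23 in ntrc seedlings and -0.89 ± 0.10 in wild type seedlings (SD, n = 3 each). Among the 21 pairs of the 7 genes this was the one pair whose order turned in every library. The turn was narrow in ntrc adult library 3, where IAA3 had 8.57 FPKM and IAA4 8.48 FPKM, a log2 ratio of 0.014. In 9 pairs the adult ratios lay outside the range of all 6 seedling libraries. For none of the 21 pairs were the ratios of the seedling genotypes separate.

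**Figure D5:**
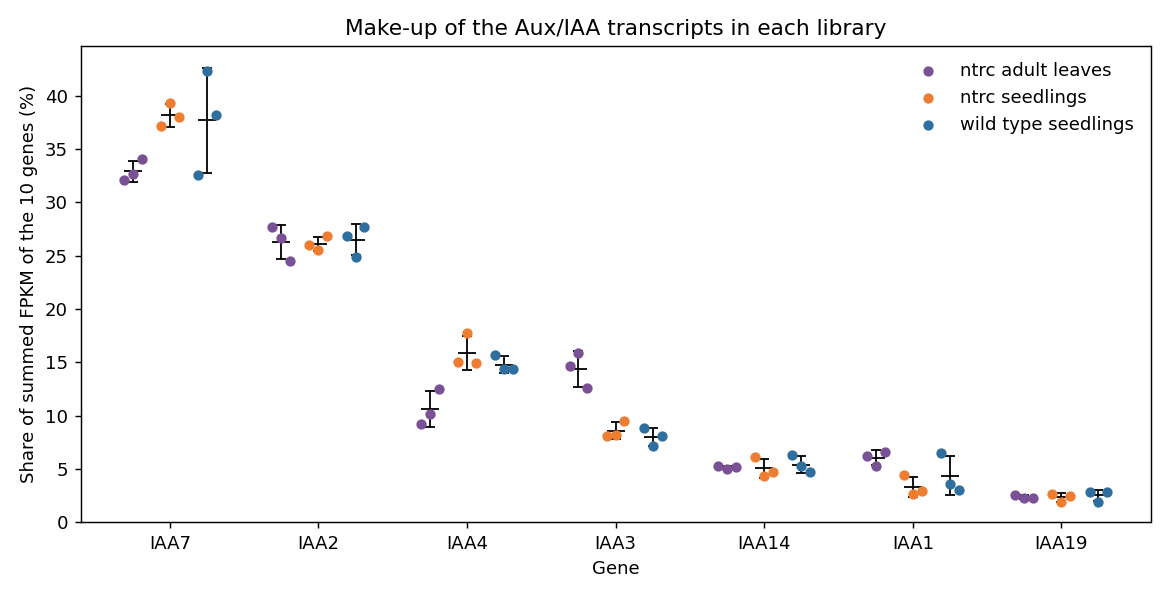
Share of each of the 7 higher genes in the summed FPKM of the 10 Aux/IAA genes (vertical axis, percent) by gene (horizontal axis) and group; points are libraries, dashes means and bars 1 SD (n = 3). IAA3 is at 12.6% to 15.8% in ntrc adult leaves, above all seedling libraries, and IAA4 is at 9.20% to 12.4%, below all of them.

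By rank within a library, IAA4 and IAA7 were lower in all adult than in all seedling libraries, while the ranges of IAA3 overlapped. Scaling leaves such ranks as they are for a fixed set of loci, but the set was cut at 1 FPKM on the scaled values. Seedling libraries were more numerous, and more loci reached 1 FPKM in each of them than in an adult library. Among 19609 loci that reached 1 FPKM in at least 3 libraries, IAA3 was at percentile 75.5 to 83.5 in ntrc adult leaves, 72.6 to 79.6 in ntrc seedlings and 67.4 to 73.8 in wild type seedlings. IAA4 was at percentile 71.3 to 75.3 in ntrc adult leaves, 85.0 to 89.3 in ntrc seedlings and 82.8 to 85.0 in wild type seedlings. IAA7 was at 90.8 to 92.5 in ntrc adult leaves, 94.3 to 95.4 in ntrc seedlings and 93.2 to 94.7 in wild type seedlings. IAA1 also took a larger share in adult leaves, 6.03% ± 0.699, against 3.33% ± 0.924 in ntrc seedlings and 4.38% ± 1.83 in wild type seedlings, but its adult range of 5.26% to 6.61% overlapped with the 6.47% of wild type seedling library 1. IAA14 and IAA19 held similar shares at both stages, with 5.17% ± 0.142 and 2.37% ± 0.151 in ntrc adult leaves and 5.06% ± 0.913 and 2.33% ± 0.420 in ntrc seedlings.

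The 250 bases before the annotated gene start were searched on both strands for the auxin response elements TGTCTC and TGTCGG, which ARFs bind, and for the G-box CACGTG, which PIFs bind. TGTCTC was present in 4 of the 10 genes (IAA1, IAA5, IAA6 and IAA19) and in 10.9% of 27443 such windows. TGTCGG was present in 2 (IAA1 and IAA5) and in 4.16%, and CACGTG in 2 (IAA7 and IAA19) and in 6.49%. Of the other 19 Aux/IAA genes, 5 held TGTCTC, 4 TGTCGG and 2 CACGTG. Either auxin element was present in 4 of the 10 genes, in 9 of the other 19 and in 14.7% of all windows, so these elements were not particular to the 10. None of the 4 genes with the highest level in seedlings, IAA7, IAA2, IAA4 and IAA3, held either auxin element in this window, which says only that the letters are not within 250 bases. A pair of windows is shown, for IAA5, the gene listed at 0 in all ntrc seedlings, and for IAA19, which held both kinds of element. Outside the 10, IAA20 and IAA30 also held both TGTCTC and CACGTG. Capitals mark the searched elements on either strand, and the sequences are those of RefSeq, TAIR10.1, from 5′ to 3′ on the gene's strand.
IAA5, chr1:5366498-5366747, minus strand: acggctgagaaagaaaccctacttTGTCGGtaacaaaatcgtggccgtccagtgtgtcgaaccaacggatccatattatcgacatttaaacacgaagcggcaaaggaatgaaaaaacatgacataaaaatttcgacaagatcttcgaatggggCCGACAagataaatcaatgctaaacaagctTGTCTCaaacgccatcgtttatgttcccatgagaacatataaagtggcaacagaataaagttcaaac
IAA19, chr3:5263751-5264000, plus strand: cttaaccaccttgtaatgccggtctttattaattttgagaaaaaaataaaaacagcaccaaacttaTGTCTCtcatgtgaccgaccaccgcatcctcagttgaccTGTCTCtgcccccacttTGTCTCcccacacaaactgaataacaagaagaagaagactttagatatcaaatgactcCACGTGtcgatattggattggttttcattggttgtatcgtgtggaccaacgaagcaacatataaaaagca
IAA5 held TGTCTC once and TGTCGG in 2 places, and IAA19 held TGTCTC in 3 places and CACGTG once.

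The genes whose pattern was most like that of the 7 tested members were named by the Pearson coefficient of their log2 values with the members' mean centred profile over the 6 seedling libraries. They were AT1G09995 (0.987), UBC29 (AT2G16740, a ubiquitin-conjugating enzyme; 0.987), AT4G38330 (0.987), KNAT6 (AT1G23380, a homeobox gene of the shoot meristem; 0.986) and NAC047 (AT3G04070; 0.985). With 6 points that share libraries and scaling, 173 of 18811 genes had a coefficient above 0.9, so this is a description and no sign of a link. Among the 13 other tested Aux/IAA genes IAA12 had the highest coefficient, 0.913, and IAA28 the lowest, 0.036.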

How the data were processed

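RNA of 9 libraries was sequenced. Both kits were stranded, per the labels' protocols: total RNA cleared of ribosomal RNA for adult leaves, mRNA for seedlings. HISAT2, StringTie, FastQC and the build TAIR10 are listed, without versions or settings, per the submitters' processing notes. Strand handling in counting is not stated there. The authors deposited 1 table with a value per locus and library, read here as log2(FPKM + 1): the unit is in the deposited name, while the log2 scale and the pseudocount of 1 are inferred from the values. No libraries were identical. The labels call replicates biological without naming separate cultures for seedlings, so p-values measure the spread between these libraries.

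The genotype test in seedlings was limma 3.58.1 under R 4.3.3, two-sided, with a mean-variance trend and robust moderation. It covered 18818 genes that reached 1 FPKM in 3 or more of the 6 libraries, and the threshold was a Benjamini-Hochberg adjusted p of 0.05. The function was tested on simulated data first, with planted changes that were all larger than those found for the tested members. Changes as small as theirs were not simulated, so the power to call them is not known. Replicate numbers are shared by the genotypes in the labels. Deviations from group means correlated with coefficients of 0.506, 0.406 and 0.278 for numbers 1 to 3, each above 0.1. Libraries of different numbers had -0.388 to 0.115, and the highest, ntrc library 2 with wild type library 3, was also above 0.1. Since deviations are taken from the mean of each group, negative coefficients between different numbers arise in part by construction. The numbers were taken as pairing the libraries, a pairing read from the values, and a fit with the number as a block stands beside the main one.

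The members and the gene lists were chosen with earlier results of these data known. All 10 members are named, and from each other pathway list the 2 tested genes with the largest absolute log2 fold change. TIR1, ESB1, OLEO2 and the Aux/IAA genes beyond IAA27 and IAA30 were named after their values were seen. FPKM, shares and ratios were computed by undoing the logarithm. Whether the authors scaled before or after taking it is not stated in the labels; scaling the log2 values would change FPKM, shares and ratios, but no order of genes within a library. Sequences come from the RefSeq assembly TAIR10.1, and their coordinates are those of that assembly, while the deposited table holds no coordinates. Protein sequences were not used, so the degron was searched as coding letters and a planned search for the repression motif was not made. Alternatives tried were the block, a pseudocount of 0.1, no level filter, quantile and median ratio scaling, limma without trend and robust moderation, leaving out each library, and shares over the whole family.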

Additional observations from a re-analysis of the deposited data

How the results depend on the processing

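No Aux/IAA gene was called in any of 12 alternative fits, and of 84 member values 82 kept their direction. The 2 that turned were IAA1 without wild type library 1 (0.12) and IAA19 without wild type library 2 (-0.12). With 1 library left out, IAA1 ranged from -0.30 to 0.12 and IAA19 from -0.12 to 0.20. The median of the 7 tested genes was 0.17 with the replicate block, a pseudocount of 0.1, no level filter, quantile or median ratio scaling and without trend and robust moderation, and lay between 0.097 and 0.26 when 1 library was left out. Over all genes, 1 was higher and 4 were lower in ntrc seedlings. With the replicate block these counts were 30 and 43, and with a pseudocount of 0.1 they were 0 and 2. Leaving out 1 library gave 0 to 2 higher and 1 to 22 lower, the 22 without ntrc library 1. The cause was not tested. Shares over the whole family in place of the 10 genes are smaller by construction: IAA3 then took 5.87% in ntrc adult leaves, 2.95% in ntrc seedlings and 2.77% in wild type seedlings, and IAA4 4.31%, 5.47% and 5.10% in the same groups. The highest IAA4 share of the family in ntrc adult leaves was 4.88%, only just below the lowest in wild type seedlings, 4.89%. The separation of IAA4 between adult leaves and seedlings was thus slimmer over the family than over the 10 genes. Depth is unknown, so genes near 1 FPKM such as IAA5, IAA6 and IAA29 have no counting interval.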

Other observations

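Among Aux/IAA genes outside the 10, a few stood far apart between the stages, as values beside a median of -1.25 over 19609 loci (log2, ntrc adult leaves minus ntrc seedlings) and with no test. IAA28 had 0.937, 0.693 and 0.761 FPKM in ntrc adult leaves, against 21.3, 17.4 and 17.04 FPKM in ntrc seedlings, and 18.2, 17.1 and 19.5 FPKM in wild type seedlings. The difference was -3.44 on the log2 scale, ntrc adult leaves minus ntrc seedlings, and this gene is known for its part in lateral root formation. IAA9, at 18.1 ± 0.422 FPKM in ntrc adult leaves and 128 ± 12.04 FPKM in ntrc seedlings, and IAA16, at 20.5 ± 1.27 FPKM in ntrc adult leaves and 138 ± 12.3 FPKM in ntrc seedlings (mean ± SD, n = 3 each), had differences of -2.75 and -2.70 on that scale. Both exceeded IAA7, the highest of the 10, in seedlings but not in adult leaves. IAA26 and IAA17 had differences of -2.43 and -2.40. Like IAA28, IAA9 and IAA16 they lay below the 10th percentile of loci, -2.28. The other Aux/IAA genes outside the 10 lay above it. Among these, IAA12 had -0.73, closer to 0 than the median over all loci.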
